A study of Homo sapiens with 24 samples.

Results

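A pair of ovarian adenocarcinoma cell lines was compared after both had been exposed to the G-quadruplex ligand pyridostatin (PDS) for 2 h: PEO4 (genotype WT in the labels) and PEO1 BRCA+, a PEO1 line in which BRCA2 had been reinstated (genotype BRCA2+). Both groups received 5 µM PDS and had 3 libraries each, which the study describes as biological replicates, so the comparison rested on 6 of the 24 libraries of the series, and all genes of the table were members. The same lines untreated and after 6 h of the same dose, with 3 libraries per condition, were set beside it, and so was another untreated pair of PEO4 and PEO1, in which PEO1 lacked the reinstated BRCA2. By the study's description both lines carry a reverted BRCA2, so the comparison is meant to hold BRCA2 status alike, and PEO1 BRCA+ is a single such line.

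G-quadruplexes are stacked structures that guanine-rich DNA or RNA can fold into, and PDS binds and stabilises them, which can stall polymerases and damage DNA. BRCA2 acts in homologous recombination at broken or stalled DNA, and cells without it are sensitive to platinum and to such ligands. PEO1 and PEO4 are widely used as a sensitive and a resistant model of high-grade serous ovarian carcinoma.

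The 6 libraries held 33260167 to 43156993 counts, and 17020 of the 28277 genes listed passed the filter on low counts. BRCA2 itself was at 7.22, 7.13 and 7.37 CPM (TMM-scaled library-size-normalised counts) in the PEO4 libraries and at 6.20, 6.75 and 7.96 CPM in those of PEO1 BRCA+, so the lines overlapped. The log2 means differed by 0.0625, with an exact 2-sided permutation p of 0.7 where 0.1 is the smallest that 3 against 3 libraries allow. The deposited counts do not distinguish the mutated from the reverted sequence, so this level does not check the label. Both lines carried their epithelial markers, with 16 of 18 above 1 CPM in PEO1 BRCA+ and 17 of 18 in PEO4; EPCAM was at 378 to 423 and 528 to 582 CPM and PAX8, a Müllerian lineage factor, at 166 to 179 and 192 to 203 CPM, respectively. The epithelial markers summed to 15720 to 17150 CPM in PEO1 BRCA+ and 7858 to 8808 CPM in PEO4. Summed immune cell markers were at 45.5 to 49.1 and 74.3 to 84.3 CPM, most of it from CD68, a lysosomal membrane protein (43.7 CPM at most in PEO1 BRCA+ and 67.3 to 78.2 CPM in PEO4), while 5 of the 9 had 0 counts in each line, the pan-leukocyte gene PTPRC among them. Summed mesothelial markers were at 48.5 to 49 and 62.55 to 66.8 CPM. Summed endothelial markers were at 0.976 to 1.42 CPM in PEO1 BRCA+ and at 0.912 to 1.47 CPM in PEO4, and summed fibroblast markers at 17.5 to 17.9 and 10.1 to 13.9 CPM.

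Replicate 2 of PEO4 stood somewhat apart from the other 2 PEO4 libraries. Its counts were over 2 times the mean of the others in 8 of 10272 genes with a mean over 8 CPM and below it by the same factor in 0 genes. Without it, 2234 genes in place of 2371 were called higher in PEO4 and 2191 in place of 2147 lower.

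At 2 h of PDS the expression profiles of the lines were far apart. Of the 17020 genes tested, 4518 (26.5%) were called different, at a Benjamini-Hochberg adjusted p under 0.05 in edgeR's quasi-likelihood test and an absolute Log2FC over 1. Expression was higher in PEO4 for 2371 genes (13.9%) and lower for 2147 (12.6%), and the 3 libraries of one line lay wholly above those of the other in 2335 and 2117 of them, against 75.8% of all genes tested. The median Log2FC over all genes was 0.02. A Log2FC beyond 2 was reached by 824 and 857 called genes, and one beyond 5 by 116 and 160. Among the called genes, 217 of those higher and 252 of those lower in PEO4 had at most 3 counts in every library of the other line, so their size is limited by depth.

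**Figure D1:**
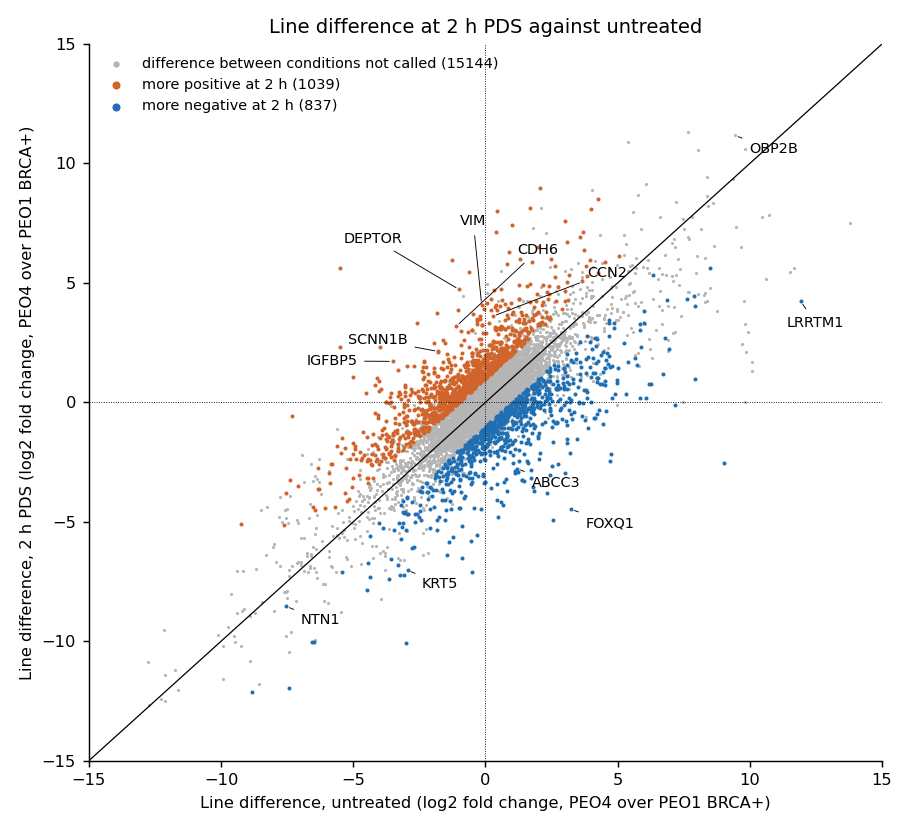
Each point is a gene tested, with the Log2FC of PEO4 against PEO1 BRCA+ in untreated cells on the horizontal axis and after 2 h of PDS on the vertical axis. Across 17020 genes the 2 differences had a Pearson r of 0.78, and 40 genes higher and 45 genes lower at 2 h were called in the opposite direction in untreated cells.

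Most of these differences also existed in cells that had received no ligand. Of the genes higher in PEO4 at 2 h, 1339 (56.5%) were called in the same direction untreated, against 12.2% of all genes tested, and 1194 (50.4%) at 6 h, against 9.52%. Of those lower, 1400 (65.2%) were so untreated and 1561 (72.7%) at 6 h, against 12.6% and 13.5%. In the other untreated pair, which stands in a table of its own and was normalized separately, 886 of 2120 higher genes tested there (41.8%) and 988 of 1847 lower genes (53.5%) had the same call, while 168 and 102 had the opposite one. A call in only the 2 h condition was made for 619 higher and 325 lower genes, but in 92 and 28 of these alone did the line difference at 2 h also differ, by its own test, from both that in untreated cells and that at 6 h.

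The 10 genes with the largest difference in favour of PEO4, among those of at least moderate abundance, are described first. OBP2B, an odorant-binding lipocalin at chr9:133205279-133223255 (gene coordinates here and below are from RefSeq, GRCh38.p14), was at 280.0, 327 and 288 CPM in the PEO4 libraries and at 0.189, 0.0259 and 0.179 CPM in those of PEO1 BRCA+ (Log2FC 11.17 ± 0.23 SE, adjusted p = 1.03e-16). MMP14, a membrane-anchored collagenase that activates MMP2 (chr14:22836585-22847758), was at 87.5, 74.1 and 83.7 against 0.0315, 0.129 and 0.179 CPM (Log2FC 9.42 ± 0.20, adjusted p = 3.99e-20). The lines did not overlap for either, and both genes were also higher in PEO4 untreated (Log2FC 9.43 and 8.37). OBP2B has a close paralogue, OBP2A, with which reads may have been exchanged.

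AQP5, a water channel of secretory epithelia, was at 18.3, 24.4 and 14.8 CPM in PEO4 and at 0.0944, 0 and 0.0597 CPM in PEO1 BRCA+, a ratio of 393 (exact 95% counting interval 168 to 1212). Its difference was larger at 2 h than untreated, where PEO4 averaged 3.44 and PEO1 BRCA+ 0.1797 CPM (change in Log2FC 4.27 ± 0.97, adjusted p = 0.00144), a size that rests on 5 counts in PEO1 BRCA+ at 2 h. ESPN, which bundles actin in microvilli, was at 30.7, 38.01 and 28.4 against 0.0944, 0.0775 and 0.119 CPM, and TIE1, an endothelial receptor tyrosine kinase, at 100.4, 82.5 and 102 against 0.504, 0.3102 and 0.328 CPM. TIE1 thus stood high in PEO4 while the endothelial marker PECAM1 was at 0.142 to 0.305 CPM there.

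The other 5 of these genes were AKR1D1, a steroid 5-beta-reductase (Log2FC 6.65), NCCRP1 (6.11), the zinc importer SLC39A4 (5.97), complement factor I (CFI, 5.96) and the kinesin KIF6 (5.88), with adjusted p between 3.86e-23 (NCCRP1) and 4.28e-11 (AKR1D1). All 10 were called higher in PEO4 untreated, at 6 h and, with the exception of CFI (Log2FC 0.68, under the threshold), in the other untreated pair. SLC39A4 was at 224, 222 and 236 CPM in PEO4 and 3.84, 3.54 and 3.49 CPM in PEO1 BRCA+, and the gap was wider than in untreated cells, where PEO1 BRCA+ averaged 17.6 CPM (change in Log2FC 2.03 ± 0.21, adjusted p = 2.32e-06).

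In the opposite direction, the genes with the largest difference were mostly at or near 0 in PEO4. XYLT1, the xylosyltransferase that starts glycosaminoglycan chains on proteoglycans (chr16:17101769-17470960), was at 24.01, 26.2 and 28.2 CPM in the PEO1 BRCA+ libraries and had 0 counts in every PEO4 library, which is at least 327-fold lower when 3 counts per library are taken as the floor. COL22A1, a collagen of tissue junctions (chr8:138588235-138914041), was at 23.1, 23.03 and 23.98 CPM against 0 (at least 292-fold lower), and EPB41L3, a membrane-cytoskeleton linker (chr18:5392386-5630663), at 19.9, 23.2 and 22.4 CPM against 0 (at least 273-fold lower). BEX1 was at 18.6, 16.6 and 15.3 CPM against 0 (at least 210.1-fold lower). All 4 had 0 counts in untreated PEO4 as well.

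CDH11, a mesenchymal cadherin (chr16:64943753-65123744), was at 56.2, 56.6 and 57.2 CPM in PEO1 BRCA+ and at 0, 0.0283 and 0 CPM in PEO4. With a single PEO4 count in total, the ratio of PEO1 BRCA+ to PEO4 was 6405 (exact 95% counting interval 1149 to 253000). PEG3, a paternally expressed imprinted zinc finger gene (22.9, 22.98 and 25.5 CPM against 0, 0 and 0.0240), had a ratio of 2683 (exact 95% counting interval 481.2 to 106000). The intervals cover counting error only.

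NTN1, the axon guidance cue netrin-1, was at 139, 139 and 140.8 CPM in PEO1 BRCA+ and at 0.472, 0.509 and 0.168 CPM in PEO4 (Log2FC -8.54 ± 0.14, adjusted p = 3.86e-23). CEACAM6, a carcinoembryonic antigen family adhesion molecule, was at 423, 458 and 449 against 2.22, 1.93 and 1.68 CPM (Log2FC -7.84 ± 0.19, adjusted p = 6.29e-15), and GABBR2, a GABA-B receptor subunit, at 75.6, 74.7 and 79.8 against 0.7497, 0.198 and 0.480 CPM (Log2FC -7.32 ± 0.30, adjusted p = 2.55e-11). CEACAM6 went the opposite way in the other untreated pair, in which it was higher in PEO4 (Log2FC 2.11), whereas NTN1 and GABBR2 were lower there too (-7.42 and -2.93).

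Among called genes, those with the most counts differed by smaller margins. RPL8, a protein of the large ribosomal subunit, was at 4667, 4849 and 4754 CPM in PEO4 and 1693, 1597 and 1543 CPM in PEO1 BRCA+ (Log2FC 1.56 ± 0.06, adjusted p = 3.98e-17). LAPTM4B, a lysosomal membrane protein, was at 1667, 1744 and 1695 against 753, 740.3 and 713 CPM (1.21). The secreted glycoprotein LGALS3BP (1.43) and SEPTIN9 (1.097) followed.

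Simple epithelial keratins took the most counts among the genes lower in PEO4. KRT8 was at 1902, 1812 and 1915 CPM in PEO4 and at 5656, 5421 and 5233 CPM in PEO1 BRCA+ (Log2FC -1.53 ± 0.09, adjusted p = 7.73e-13), and its partner KRT18 at 1099, 1083 and 1162 against 3172, 2932 and 2881 CPM (-1.43 ± 0.11, adjusted p = 1.55e-09). In untreated cells neither was called (Log2FC -0.19 and -0.09, adjusted p = 0.068 and 0.462), and the changes of -1.35 ± 0.13 and -1.33 ± 0.15 passed their own test (adjusted p = 2.54e-08 and 2.5e-06). KRT7 was lower in PEO4 in both conditions (Log2FC -1.81 at 2 h and -1.66 untreated). KRT8 and KRT18 overlap in the annotation, and KRT7 overlaps its antisense gene KRT7-AS, so their reads may not be fully separated.

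The translation initiation scaffold EIF4G1 was at 708, 616 and 744 CPM in PEO4 and 1726, 1688 and 1753 CPM in PEO1 BRCA+ (Log2FC -1.32 ± 0.07, adjusted p = 3.57e-15). The actin cross-linker FLNA (-1.01) and the scaffold AHNAK (-1.02) lay at the threshold: their calls were lost when libraries were scaled by totals (Log2FC -0.989 and -0.9999) and without PEO1 BRCA+ replicate 3 (-0.986 and -0.918), without PEO4 replicate 2 for FLNA (-0.96) and without PEO4 replicate 1 for AHNAK (-0.89).

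Genes were next grouped into 41 lists by function. Against the 26.5% of all tested genes that were called, the share of called members ran from 0 to 91.7%, and the HOX genes, the interferon-stimulated genes and the WNT ligands had the highest shares among lists of 10 or more tested members.

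**Figure D2:**
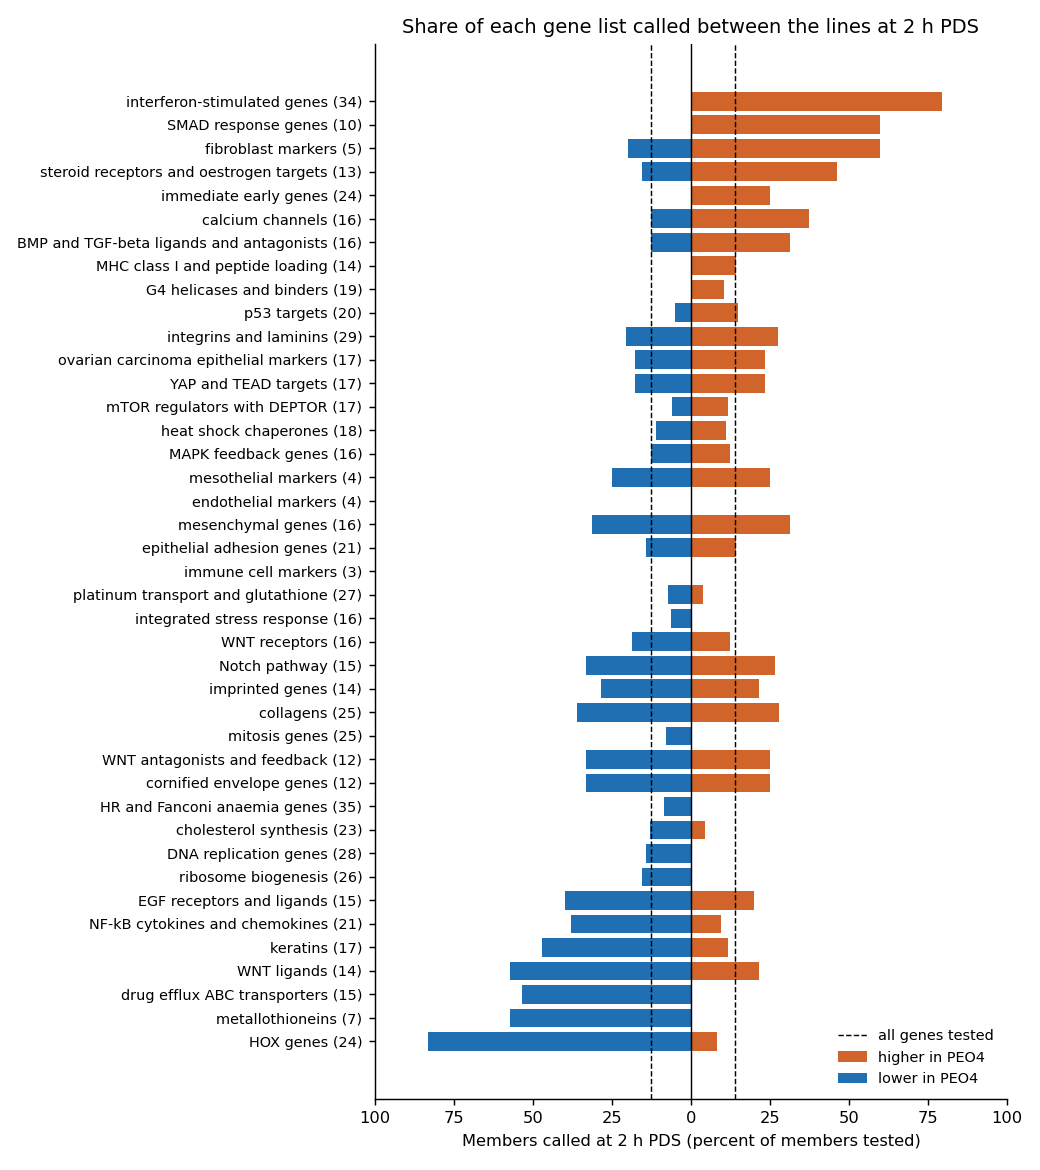
Bars give, for each gene list, the percentage of tested members called higher (right) and lower (left) in PEO4 at 2 h of PDS, beside the same shares over all genes tested (13.9% and 12.6%). Interferon-stimulated genes stood on the side higher in PEO4 (27 of 34) and HOX genes on the side lower (20 of 24).

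Interferon-stimulated genes encode antiviral effectors that type I and type III interferons switch on through the interferon-stimulated response element in their promoters. Of 34 tested, 27 were higher in PEO4 at 2 h and 0 lower (79.4% called), with a median Log2FC of 2.82 against 0.02 over all genes. The ubiquitin-like modifier ISG15 was at 397, 476 and 391.3 CPM in the PEO4 libraries and at 37.3, 31.7 and 30.4 CPM in those of PEO1 BRCA+ (Log2FC 3.67 ± 0.18, adjusted p = 1.8e-10). IFIT1, which binds viral RNA caps, was at 134, 153 and 125 against 6.11, 6.57 and 6.38 CPM (4.44 ± 0.20, adjusted p = 6.65e-11), and IFIT3 at 220.7, 220.3 and 212 against 15.9, 18.3 and 15.4 CPM (3.72 ± 0.17, adjusted p = 7.22e-11). No library of PEO1 BRCA+ reached the level of any PEO4 library for these 3 genes.

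The largest differences of the list were those of BST2 (tetherin), which holds budding virus at the membrane, at 7.36, 8.74 and 6.12 against 0.0629, 0.103 and 0.0597 CPM (Log2FC 6.51 ± 0.64, adjusted p = 5.64e-07), and of the pro-apoptotic XAF1, at 11.7, 16.2 and 11.8 against 0.315, 0.155 and 0.298 CPM (5.698 ± 0.48, adjusted p = 9.43e-08). The difference was present before the ligand, with 33 of the 34 called higher in PEO4 untreated (median Log2FC 3.31) and 20 at 6 h (median 1.74). In 9 of them the difference was smaller at 2 h than untreated by its own test, against 4.92% of all genes tested. MX1, for instance, averaged 232 CPM in untreated PEO4, with 188, 189 and 318 CPM in its 3 libraries, and was at 80.3, 76.1 and 75.1 CPM after 2 h, while PEO1 BRCA+ averaged 9.36 and 18.4 CPM (change in Log2FC -2.55 ± 0.38, adjusted p = 0.000187).

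The 250 bases before the annotated start of 4 of these genes (RefSeq, GRCh38.p14, read on the gene's own strand) are given because they hold matches to the interferon-stimulated response element. Capitals mark each match to GAAANNGAAA or to its reverse complement, and where matches overlap they form a single run. The regions are chr1:1013247-1013496 (plus strand) for ISG15, chr10:89392373-89392622 (plus) for IFIT1, chr10:89327747-89327996 (plus) for IFIT3 and chr19:17405631-17405880 (minus) for BST2.
ISG15: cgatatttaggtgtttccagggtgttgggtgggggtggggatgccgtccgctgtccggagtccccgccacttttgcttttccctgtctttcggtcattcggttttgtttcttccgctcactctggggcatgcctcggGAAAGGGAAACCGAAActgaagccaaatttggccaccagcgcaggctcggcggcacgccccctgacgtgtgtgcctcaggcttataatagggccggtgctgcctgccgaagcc
IFIT1: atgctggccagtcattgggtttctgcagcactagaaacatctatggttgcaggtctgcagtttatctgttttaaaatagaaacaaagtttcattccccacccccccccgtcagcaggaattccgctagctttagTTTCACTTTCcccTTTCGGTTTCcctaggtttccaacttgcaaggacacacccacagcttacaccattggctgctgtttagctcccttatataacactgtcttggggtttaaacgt
IFIT3: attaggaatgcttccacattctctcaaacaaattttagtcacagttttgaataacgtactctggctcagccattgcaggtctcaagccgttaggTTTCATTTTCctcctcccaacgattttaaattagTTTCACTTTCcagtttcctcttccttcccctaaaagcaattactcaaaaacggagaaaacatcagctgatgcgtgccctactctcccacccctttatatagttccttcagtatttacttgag
BST2: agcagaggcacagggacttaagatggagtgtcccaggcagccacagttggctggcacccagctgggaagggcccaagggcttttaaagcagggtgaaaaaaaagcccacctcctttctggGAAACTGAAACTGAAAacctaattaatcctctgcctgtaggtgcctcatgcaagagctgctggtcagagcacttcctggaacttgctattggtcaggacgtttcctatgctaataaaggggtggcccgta
The first match began 113 bases before the start in ISG15, 116 in IFIT1, 156 in IFIT3 and 130 in BST2, and each of the 4 held 2, which overlap in ISG15 and BST2. Of the 26 tested interferon-stimulated genes with a promoter in the table, 14 (53.8%) held a match, as did 13 of the 21 that were called higher, against 3.07% of all 27195 promoters and 2.37% of the 12445 promoters of tested genes. Over all called genes the share was 3.43% of 1544 promoters of genes higher in PEO4 and 2.06% of 1505 promoters of genes lower. The match is a description of letters and not of a bound site.

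Other immune lists had smaller called shares than the interferon-stimulated genes. Of 17 genes of MHC class I and peptide loading, 14 were tested. Among these, 2 were higher (HLA-C, Log2FC 1.31, and HLA-F, 1.12) and 0 lower, with a median of 0.31. The share called was 14.3%, below the 26.5% of all genes tested. Reads of HLA genes can be shared between loci. HLA-E, TAP1 and PSMB9 were left out, with at most 6, 1 and 0 counts in any of the 18 libraries. The reason for such low counts was not tested, so this list is incomplete for the comparison with interferon-stimulated genes. Of 21 tested cytokines and chemokines driven by NF-kB, 2 were higher and 8 lower in PEO4 (47.6% called, median -0.46). The neutrophil chemoattractant CXCL8 was at 5.61, 6.45 and 6.96 CPM in PEO4 and 40.9, 46.01 and 41.5 CPM in PEO1 BRCA+ (Log2FC -2.75 ± 0.12, adjusted p = 6.3e-14), and the related CXCL1 at 5.11, 5.89 and 5.69 against 41.01, 46.7 and 40.95 CPM (-2.95). Both gaps were larger untreated, when PEO4 averaged 0.7102 and 1.39 CPM (changes of 3.57 and 2.96). The cytokine IL32 was also lower (Log2FC -3.71) and the monocyte chemoattractant CCL2, at 1.35, 0.724 and 1.19 CPM against 0.0278, 0 and 0.0720, had a ratio of 30.2 (exact 95% counting interval 11.4 to 113). On the higher side stood IL11 (1.06, a call that was not kept in every fit that left out a library) and CXCL5, which had 0 counts in the 3 PEO1 BRCA+ libraries and 0.194, 0.0849 and 0.288 CPM in PEO4 (at least 2.17-fold higher) and was called lower in PEO4 untreated.

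HOX genes, homeodomain factors that mark the position of a cell along the body axis, had the highest share of members called of the lists tested. Only 24 of 39 passed the filter on low counts. A gene could pass it through PEO1 BRCA+ alone, so the share called and the median do not describe the whole family. Of the 24 tested, 20 were lower in PEO4 and 2 higher (91.7% called), with a median Log2FC of -4.45, or -3.76 when the 4 genes with 0 counts throughout PEO4 are set at their bound. HOXB8 was at 10.7, 10.3 and 11.2 CPM in PEO1 BRCA+ and at 0 in PEO4 (at least 134-fold lower), and HOXC9 at 6.798, 7.68 and 7.28 CPM against 0 (at least 90.6-fold lower). HOXC10 had a single PEO4 count and 9.38, 9.36 and 9.902 CPM in PEO1 BRCA+, a ratio of 1078 (exact 95% counting interval 193 to 42630). HOXA10, which patterns the uterus, was at 0.111, 0.0849 and 0.216 CPM in PEO4 and 9.72, 9.85 and 9.13 CPM in PEO1 BRCA+ (Log2FC -6.04 ± 0.21, adjusted p = 4.47e-18), and HOXB7 at 12, 11.6 and 13.8 against 47.1, 46.8 and 45.99 CPM (-1.900 ± 0.07).

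Within the HOXB cluster the direction differed between members, and HOXB4 and HOXB5 were called neither way at 2 h. HOXB2 was at 219, 229 and 247 CPM in PEO4 and at 102, 98.95 and 90.7 CPM in PEO1 BRCA+ (Log2FC 1.25 ± 0.07, adjusted p = 6.59e-14), and HOXB3 at 192, 170.5 and 192 against 78.4, 78.9 and 78.5 CPM (1.23 ± 0.06, adjusted p = 4.52e-15), whereas HOXB6, HOXB7, HOXB8 and HOXB9 were lower. In untreated cells and at 6 h of PDS, 21 HOX genes were lower and 2 higher at each (medians -4.15 and -4.31).

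**Figure D3:**
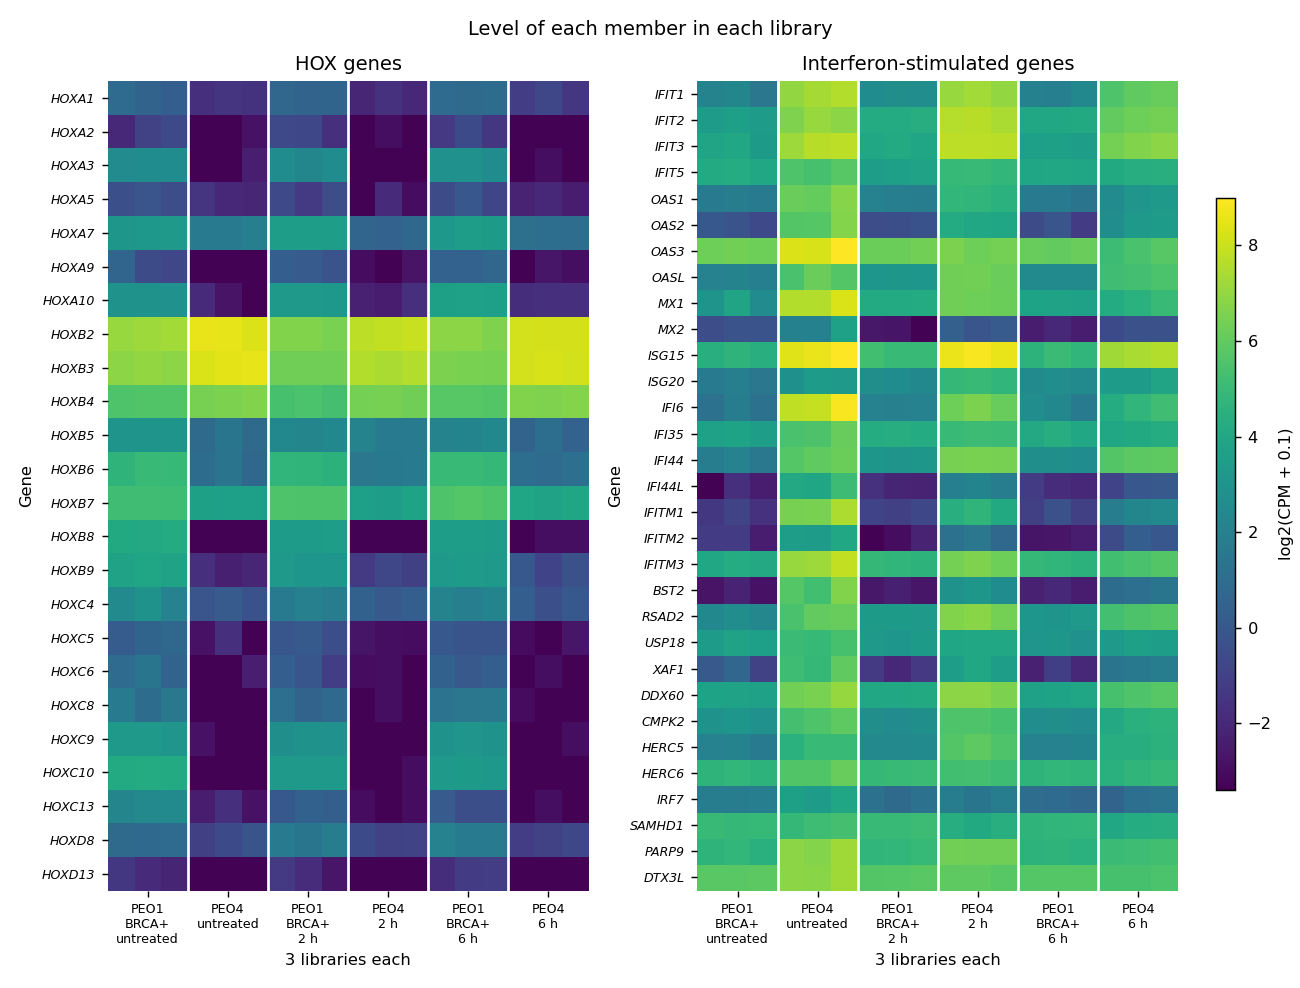
Each row is one of the HOX genes or one of 31 of the interferon-stimulated genes, and each column one of the 18 libraries, grouped by line and treatment, with colour giving log2(CPM + 0.1). Of 24 HOX genes 20 were lower in PEO4 at 2 h and only HOXB2 and HOXB3 were called higher, and the interferon-stimulated genes were called higher in PEO4 in 33 of 34 cases untreated, 27 at 2 h and 20 at 6 h.

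Keratins and genes of the cornified envelope, the cross-linked shell of squamous cells, split between the lines. Of 17 tested keratins, 2 were higher and 8 lower in PEO4 (58.8% called, median -0.96). The basal keratin KRT5 was at 9.91, 11.9 and 10.4 CPM in PEO4 and at 1402, 1372 and 1408 CPM in PEO1 BRCA+ (Log2FC -7.02 ± 0.30, adjusted p = 8.06e-11). Its gap was wider than in untreated cells, where PEO4 averaged 174 and PEO1 BRCA+ 1345 CPM (change in Log2FC -4.08 ± 0.34, adjusted p = 1e-06). KRT17, a keratin of activated epithelium, went the other way, at 293, 427 and 233 against 24.4, 23.9 and 21.3 CPM (3.78 ± 0.25, adjusted p = 8.96e-09). KRT81, a hair keratin whose reads may be shared with KRT86, was at 178, 233 and 168 against 947, 892 and 850.5 CPM (-2.22).

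Of 12 tested cornified envelope genes, 3 were higher and 4 lower (median 0.06), whereas 9 were higher and 1 lower in untreated cells. Involucrin (IVL) was at 8.72, 7.19 and 9.67 CPM in PEO4 and 95.3, 98.2 and 95.98 CPM in PEO1 BRCA+ (Log2FC -3.495 ± 0.22, adjusted p = 3.63e-09), and SPRR1B at 0.2499, 0.0849 and 0.144 against 1.57, 1.99 and 2.06 CPM (-3.53). SPRR1B had been called in the opposite direction in untreated cells (Log2FC 1.801, change -5.33, adjusted p = 7.04e-08). The cross-linking enzyme TGM3 was at 2.03, 1.87 and 1.68 against 0, 0.0517 and 0.0597 CPM, a ratio of 48.1 (exact 95% counting interval 18.5 to 178), and LORICRIN at 0.7497, 0.481 and 0.912 CPM against 0 (at least 8.196-fold higher), a call not kept in every fit without a library. Both were far higher in untreated PEO4, with means of 440.9 and 56.02 CPM, but the change of the line difference was called for neither.

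Matrix and adhesion genes differed in both directions. Of 25 tested collagens, 7 were higher and 9 lower in PEO4 (64% called, median 0.23), and the 9 lower ones included the 6 chains of type IV collagen, the network of basement membranes. COL4A1 was at 2.67, 1.73 and 2.52 CPM in PEO4 and at 306, 306 and 330.5 CPM in PEO1 BRCA+ (Log2FC -7.08 ± 0.10, adjusted p = 3.32e-25), and COL4A2 at 6.39, 5.26 and 5.54 against 634, 629.7 and 649 CPM (-6.798 ± 0.11, adjusted p = 1.2e-23). COL4A1 and COL4A2 lie head to head on chromosome 13 and were lower in PEO4 in all 3 conditions. Among the fibrillar and type VI chains, COL3A1 was at 0.889, 1.13 and 0.768 CPM against 0 in PEO1 BRCA+ (at least 10.7-fold higher) and COL6A2 at 8.22, 10.5 and 7.85 against 0.283, 0.155 and 0.179 CPM (5.42).

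Of 29 tested integrins and laminins, 8 were higher and 6 lower (48.3%). The laminin chain LAMA4 was at 157, 151.3 and 137 CPM in PEO4 and 28.6, 26.9 and 30.1 CPM in PEO1 BRCA+ (Log2FC 2.38 ± 0.20, adjusted p = 1.05e-07), with no call in untreated cells (0.23) or at 6 h (0.27), and the integrin ITGA9 was also higher (4.06). LAMA1 (-2.12) and ITGA4 (-1.43) were lower. Of 21 tested epithelial adhesion genes, 3 were higher and 3 lower (28.6%, near the 26.5% of all genes tested). The tight junction gene CLDN1 was at 54.5, 54.1 and 51.2 against 756, 780.6 and 791.1 CPM (-3.86 ± 0.12, adjusted p = 3.5e-15), whereas CLDN3 (1.83) and TJP3 (2.35) were higher; CLDN1 overlaps CLDN16 (-1.49) in the annotation.

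Mesenchymal genes did not move as a block. Of 16 tested, 5 were higher (VIM, SNAI1, ACTA2, TAGLN and MMP2) and 5 lower (CDH2, CDH11, FN1, SNAI2 and FAP), with a median of -0.77. Vimentin (VIM), the intermediate filament of mesenchymal cells, was at 126, 153 and 108 CPM in PEO4 and at 7.21, 8.27 and 7.37 CPM in PEO1 BRCA+ (Log2FC 4.08 ± 0.46, adjusted p = 3.08e-06), and MMP2, a gelatinase that MMP14 activates, at 22.2, 26.9 and 18.4 against 2.08, 1.499 and 1.43 CPM (3.76 ± 0.40, adjusted p = 1.39e-06). In the other untreated pair VIM and MMP2 were lower in PEO4 (Log2FC -9.05 and -3.46). Fibronectin (FN1) was at 62.2, 60.7 and 72.95 against 192, 194 and 224 CPM (-1.64) and the repressor SNAI2 at 0.4998, 0.651 and 0.912 against 7.805, 7.703 and 6.05 CPM (-3.36). The cell surface protease FAP, a fibroblast marker, was at 0.694, 0.566 and 0.768 against 14.3, 13.9 and 14.3 CPM (-4.37).

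Lineage markers fixed as a check of the lines were themselves split. Of 17 tested epithelial markers of ovarian carcinoma, 4 were higher (MUC16, FOLR1, CLDN3 and WFDC2) and 3 lower (KRT7, KRT8 and KRT18). WFDC2, which encodes HE4, was at 94.8, 136 and 94.5 CPM in PEO4 and 8.56, 9.33 and 7.99 CPM in PEO1 BRCA+ (Log2FC 3.65 ± 0.16, adjusted p = 6.83e-12), and the folate receptor FOLR1 at 3.83, 5.32 and 2.95 against 0.0315, 0.0775 and 0.0597 CPM, a ratio of 68.9 (exact 95% counting interval 31.4 to 189). MUC16 (CA125) was at 158, 442 and 189.6 against 71.98, 72.6 and 109 CPM, with replicate 2 of PEO4 far above the other 2 (Log2FC 1.64, and 1.03 without that library). Of 4 tested mesothelial markers BNC1 was higher (3.499) and CALB2 lower (-1.69). Of 5 tested fibroblast markers 3 were higher (COL1A1, COL1A2 and COL3A1) and 1 lower (FAP), and none of 3 immune or 4 endothelial markers tested was called.

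WNT ligands, secreted factors that act through frizzled receptors and beta-catenin, were mostly lower in PEO4. Of 14 tested, 8 were lower and 3 higher (78.6% called, median -1.17), against 5 lower and 3 higher in untreated cells. WNT7A was at 11.3, 8.57 and 12.7 CPM in PEO4 and 175, 174 and 170.7 CPM in PEO1 BRCA+ (Log2FC -3.99 ± 0.20, adjusted p = 4.2e-10), a gap that was wider than untreated (change -3.197 ± 0.27, adjusted p = 7.87e-07). The 3 ligands on the other side were WNT11, at 31.96, 41.3 and 28.9 CPM in PEO4 and 0.8498, 0.7497 and 0.477 CPM in PEO1 BRCA+ (5.61 ± 0.25, adjusted p = 5.59e-12), WNT6, at 4.25, 7.75 and 4.78 against 0.2203, 0.259 and 0.179 CPM (4.63), and WNT16. WNT6 overlaps WNT10A, which was called lower, so their reads may not be fully separated.

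Receptors and feedback genes of the pathway showed no single direction. Of 16 tested WNT receptors, 2 were higher (FZD4, 1.62, and FZD8, 1.25) and 3 lower (FZD2, FZD10 and ROR1), with a median of 0.20. The share called was 31.2%, against 26.5% of all genes tested. FZD10 was at 12.5, 13.03 and 12.1 CPM in PEO1 BRCA+ against 0.0278, 0.0566 and 0.0240 in PEO4, a ratio of 355 (exact 95% counting interval 138 to 1304), and ROR1, a receptor of WNT5A, at 2.94, 2.69 and 3.504 CPM in PEO4 against 61.4, 63.1 and 67.02 CPM (Log2FC -4.38 ± 0.11, adjusted p = 2.11e-20). Of 12 tested antagonists and feedback genes, 3 were higher (AXIN2, 1.54, APCDD1, 4.03, and TCF7) and 4 lower (NKD1, DKK1, -1.73, LEF1 and SP5). APCDD1, a membrane-bound WNT inhibitor, was at 12.6, 12.96 and 11.9 CPM in PEO4 and 0.378, 0.775 and 1.104 CPM in PEO1 BRCA+, after a mean of 225 CPM in untreated PEO4 (change -3.88 ± 0.56, adjusted p = 8.38e-05).

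Of 16 tested ligands and antagonists of the BMP and TGF-beta family, 5 were higher (BMP2, BMP4, BMP5, TGFB3 and GDF15) and 2 lower in PEO4 (43.8% called, median 0.46). The 2 lower ones had wide gaps: TGFB2 was at 0.2499, 0.141 and 0.264 CPM in PEO4 and 9.66, 11.3 and 12.1 CPM in PEO1 BRCA+ (Log2FC -5.62 ± 0.20, adjusted p = 3.28e-18), and the activin subunit INHBB at 14.7, 16.1 and 14.6 against 339, 330.8 and 323 CPM (-4.45 ± 0.13, adjusted p = 1.26e-14). Both gaps were wider than untreated (changes of -4.38 and -3.17). On the higher side BMP5 was at 0.639, 0.651 and 0.528 CPM against 0 (at least 6.95-fold higher) and the stress-induced GDF15 had a Log2FC of 1.78. Of 10 SMAD response genes, 6 were higher and 0 lower (60%, median 1.42). ID4, an inhibitor of helix-loop-helix factors, was at 390.1, 444 and 417 against 41.8, 44.4 and 40.03 CPM (3.31 ± 0.13, adjusted p = 6.33e-13), and ID1 at 223, 293 and 243 against 98.8, 88.2 and 80.3 CPM (1.51). The same count of this list, 6, was higher in PEO4 untreated.

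Of 15 tested Notch genes, 4 were higher and 5 lower (60%, median 0.15). The ligand JAG1 was at 5.25, 4.98 and 4.66 CPM in PEO4 and 30.3, 30.8 and 30.96 CPM in PEO1 BRCA+ (Log2FC -2.63 ± 0.10, adjusted p = 1.75e-17), and the feedback inhibitor NRARP was lower too (-2.04), while the target HEYL was higher (1.72). Among 15 tested EGF receptors and ligands, 3 were higher and 6 lower (60%, median -0.52). EGFR was at 133, 126 and 137 against 462, 478 and 556 CPM (-1.92 ± 0.13, adjusted p = 1.48e-09) and its ligand amphiregulin (AREG) at 10.1, 10.9 and 11.2 against 108, 119 and 107 CPM (-3.37 ± 0.09, adjusted p = 1.14e-19). Epiregulin (EREG) was higher in PEO4 (1.14), and ERBB4, at 1.44, 1.73 and 1.27 CPM against 0.0315, 0 and 0.0298, had a ratio of 76.4 (exact 95% counting interval 20.8 to 636).

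Immediate early genes respond within minutes to growth factors or stress. Of 24 tested, 6 were higher (FOSB, EGR1, EGR2 and the 3 NR4A nuclear receptors) and 0 lower (25% called, near the 26.5% of all genes tested; median 0.62), against 10 higher and 3 lower untreated. NR4A3 was at 8.997, 13.3 and 6.02 CPM in PEO4 and 0.2203, 0.284 and 0.209 CPM in PEO1 BRCA+ (Log2FC 5.27 ± 0.33, adjusted p = 2.69e-12), and NR4A2 at 13.1, 15.2 and 10.2 against 1.102, 1.34 and 1.19 CPM (3.39 ± 0.29). Of 16 MAPK feedback genes, 2 were higher (SPRY1, 3.48, and DUSP2, 3.43) and 2 lower (DUSP4, -1.23, and SPRY4, -1.58). This list too had 25% called, near the 26.5% of all genes tested.

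Of 17 tested YAP and TEAD targets and cofactors, 4 were higher (CCN1, CCN2, ANKRD1 and VGLL3) and 3 lower (TEAD2, TEAD4 and VGLL1). CCN2, the matricellular connective tissue growth factor, was at 583, 664 and 572 CPM in PEO4 and at 53.6, 50.3 and 45.5 CPM in PEO1 BRCA+ (Log2FC 3.61 ± 0.32, adjusted p = 2.37e-07). In untreated cells it averaged 88.5 and 72.9 CPM and was not called (Log2FC 0.28). ANKRD1 was at 12.1, 14.9 and 11.1 against 3.97, 3.62 and 3.28 CPM (1.81 ± 0.15) and had been lower in PEO4 untreated (-1.400, change 3.21, adjusted p = 2.04e-10). TEAD2 (-4.09) and VGLL1 (-2.99) were lower.

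The ABC transporters that were called at 2 h were all lower in PEO4. Of 15 tested ABC efflux transporters, 8 were lower in PEO4 and 0 higher (53.3% called, median -1.33), against 5 lower and 2 higher in untreated cells. At 6 h, 7 were lower and 0 higher. ABCG1, among the 8, was near the limit of detection, with a mean of 0.238 CPM in PEO1 BRCA+ at 2 h. ABCC3, an exporter of organic anions and glucuronides, was at 6.11, 6.79 and 5.28 CPM in PEO4 and 43.5, 39.6 and 41.2 CPM in PEO1 BRCA+ (Log2FC -2.78 ± 0.22, adjusted p = 4.99e-08). ABCC4 was at 4.89, 3.99 and 4.896 against 16.1, 16.1 and 18.6 CPM (-1.88) and ABCA3 at 13.02, 14.97 and 10.9 against 32.2, 32.1 and 33.5 CPM (-1.33). Of 7 tested metallothioneins, small metal-binding proteins with near-identical copies, 4 were lower (MT1E, MT1G, -2.03, MT1M, -2.11, and MT1X) and 0 higher. Of 27 tested genes of platinum transport and glutathione, 1 was higher (SLC22A2, an organic cation importer, 3.26) and 2 lower (ABCC2, -2.51, and GSTM3, -1.31). That share of 11.1% was below the 26.5% of all genes tested.

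Steroid receptors and oestrogen targets were more often higher at 2 h, with 6 of 13 tested higher and 2 lower (median 0.80). Untreated, 3 were higher and 1 lower (median 0.43), whereas at 6 h 2 were higher and 4 lower (median -0.30). GREB1, an oestrogen receptor cofactor, was at 89.5, 131.4 and 77.2 CPM in PEO4 and 3.08, 2.95 and 3.49 CPM in PEO1 BRCA+ (Log2FC 4.97 ± 0.30, adjusted p = 4.15e-09), and carbonic anhydrase CA12 at 11.2, 12.99 and 8.54 against 2.46, 2.48 and 2.62 CPM (2.11 ± 0.16). CA12 was lower in PEO4 in untreated cells (-1.81) and at 6 h (-1.496). NR3C2 (-2.295) and GATA3 (-1.005) were lower, and the call on GATA3 was lost with scaling by totals (-0.98) and without any of 3 of the libraries (PEO1 BRCA+ replicate 1 or 3 or PEO4 replicate 3, -0.996 to -0.979). Of 14 tested imprinted genes, 3 were higher, including PEG10 (1.66) and its neighbour SGCE (1.82), and 4 lower, including PEG3 and the overlapping ZIM2, which was at 2.67, 2.15 and 3.22 CPM against 0 (at least 33.5-fold lower).

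Repair and proliferation lists had smaller called shares than all genes tested. Of 35 tested genes of homologous recombination and the Fanconi anaemia pathway, 3 were lower in PEO4 and 0 higher (8.57% called, against 26.5% of all genes tested; median 0.03). Among the 3, the checkpoint kinase ATR was at 27.4, 23.4 and 28.01 CPM in PEO4 and 65.5, 64.99 and 70.98 CPM in PEO1 BRCA+ (Log2FC -1.35 ± 0.07, adjusted p = 3.77e-15) and FANCA at 25.3, 23.9 and 25.4 against 55.6, 56.1 and 56.9 CPM (-1.17). Of 19 helicases and proteins that bind G-quadruplexes, 2 were higher (10.5%): RECQL4 was at 139, 125 and 142 against 55.5, 54.1 and 49 CPM (1.36 ± 0.07, adjusted p = 5.31e-15) and RECQL5 at 74.3, 74.5 and 71.3 against 31.5, 28.4 and 29.3 CPM (1.305). DHX36, which unwinds G-quadruplexes, had a Log2FC of -0.77 and did not reach the threshold of 1.

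Of 28 DNA replication genes, 4 were lower (among them GINS2, -1.28, PCNA, -1.14, and POLA1) and 0 higher, of 25 mitosis genes 2 were lower (BUB1B, -1.07, and MKI67, -1.08, whose call was not kept in every fit without a library) and 0 higher, and of 26 ribosome biogenesis genes 4 were lower (NOP56, -1.38, UTP20, POLR1B and TCOF1, -1.24) and 0 higher. Their medians were -0.32, -0.17 and -0.39. The proliferation antigen MKI67 was at 179, 156 and 215 CPM in PEO4 and 359.8, 364 and 443 CPM in PEO1 BRCA+.

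The stress and metabolic lists also had smaller called shares than all genes tested. Of 20 tested p53 targets, 3 were higher (TP53INP1, 2.36, FDXR and CCNG1, 1.18) and 1 lower (PLK3, -1.12), and of 16 integrated stress response genes 1 was lower (TRIB3, -1.21) and 0 higher. Of 18 heat shock chaperones, 2 were higher and 2 lower, 1 of which (HSPA1A) lost its call in 4 of the 6 fits that left out a library of the 2 h groups (adjusted p = 0.0607 to 0.0691). The small heat shock protein HSPB1 was at 700.5, 876 and 714 CPM in PEO4 and 140.7, 127 and 119.5 CPM in PEO1 BRCA+ (Log2FC 2.56 ± 0.10, adjusted p = 2.13e-14), while alpha-B crystallin (CRYAB) was at 1.14, 1.87 and 1.15 against 24.04, 21.9 and 22.5 CPM (-4.05 ± 0.15). HSPB8 was higher (2.02), and HSPA1A, which shares near-identical sequence with HSPA1B and had 0 counts in PEO4 and under 0.1 CPM in PEO1 BRCA+, is given no fold.

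Of 23 cholesterol synthesis genes, 1 was higher and 3 were lower. Among the lower genes was SREBF2, the transcription factor that switches on this pathway when sterols run low, at 98.3, 98.5 and 91.6 against 212, 206 and 213 CPM (-1.13 ± 0.14, adjusted p = 3.81e-06). Of 17 mTOR regulators, 2 were higher (DEPTOR and SESN3, 2.55) and 1 lower (PRR5, -1.17). Of 16 calcium channel genes, 6 were higher and 2 lower (50%), most of them close to the limit of detection: CACNA1B was at 0.416, 0.906 and 0.336 CPM against 0, 0.0259 and 0, a ratio of 56.1 (exact 95% counting interval 9.702 to 2253), and CACNA1C at 0.346, 0.103 and 0.239 CPM in PEO1 BRCA+ against 0, 0 and 0.0240, a ratio of 25 (exact 95% counting interval 4.06 to 1030).

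The design also asks which line differences were not the same untreated and at 2 h of PDS. No group of the series was labelled as vehicle-treated, so a change cannot be credited to the ligand alone. The Log2FC between the lines was more positive at 2 h than untreated in 1039 genes (6.10% of those tested) and more negative in 837 (4.92%), 11.0% in all. Both counts compare libraries of unlike depth, since the untreated libraries held 18699929 to 22375644 counts with 0.217 to 0.474% in ribosomal RNA genes and the 2 h libraries 33260167 to 43156993 with 0.0186 to 0.0253%. Depth and ribosomal share moved with the treatment in both lines, and their part in the changes was not tested. From 2 to 6 h the difference became more positive in 319 genes (1.87%) and more negative in 1193 (7.01%), 8.88% in all.

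DEPTOR, an inhibitor that binds both mTOR complexes (chr8:119873722-120050918), had the largest change towards PEO4 among genes of at least moderate abundance. It was at 118, 137 and 101.2 CPM in the PEO4 libraries at 2 h and at 5.07, 4.42 and 3.997 CPM in those of PEO1 BRCA+ (Log2FC 4.72 ± 0.19, adjusted p = 3.25e-12), whereas the untreated libraries held 1.47, 3.92 and 1.61 and 3.79, 4.75 and 5.05 CPM, respectively. The change of 5.72 ± 0.34 had an adjusted p of 6.83e-09. At 6 h the PEO4 libraries were at 10.6, 10.8 and 10.9 CPM and those of PEO1 BRCA+ at 3.55, 4.76 and 4.05 CPM, so that the gap was smaller again.

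VIM followed the same course: in untreated PEO4 its libraries were at 8.35, 27.7 and 3.18 CPM, a wide spread, and in untreated PEO1 BRCA+ at 13.03, 15.4 and 13.96 CPM (Log2FC -0.14), against a Log2FC of 4.08 at 2 h (change 4.22 ± 0.67, adjusted p = 0.000296). SCNN1G, a subunit of the epithelial sodium channel, was lower in untreated PEO4 (1.21, 1.05 and 0.783 against 15.1, 21.2 and 18.96 CPM), while at 2 h it was at 9.88, 9.57 and 9.26 against 5.79, 5.74 and 5.88 CPM, a difference under the threshold (change 4.89 ± 0.21, adjusted p = 1.77e-14).

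**Figure D4:**
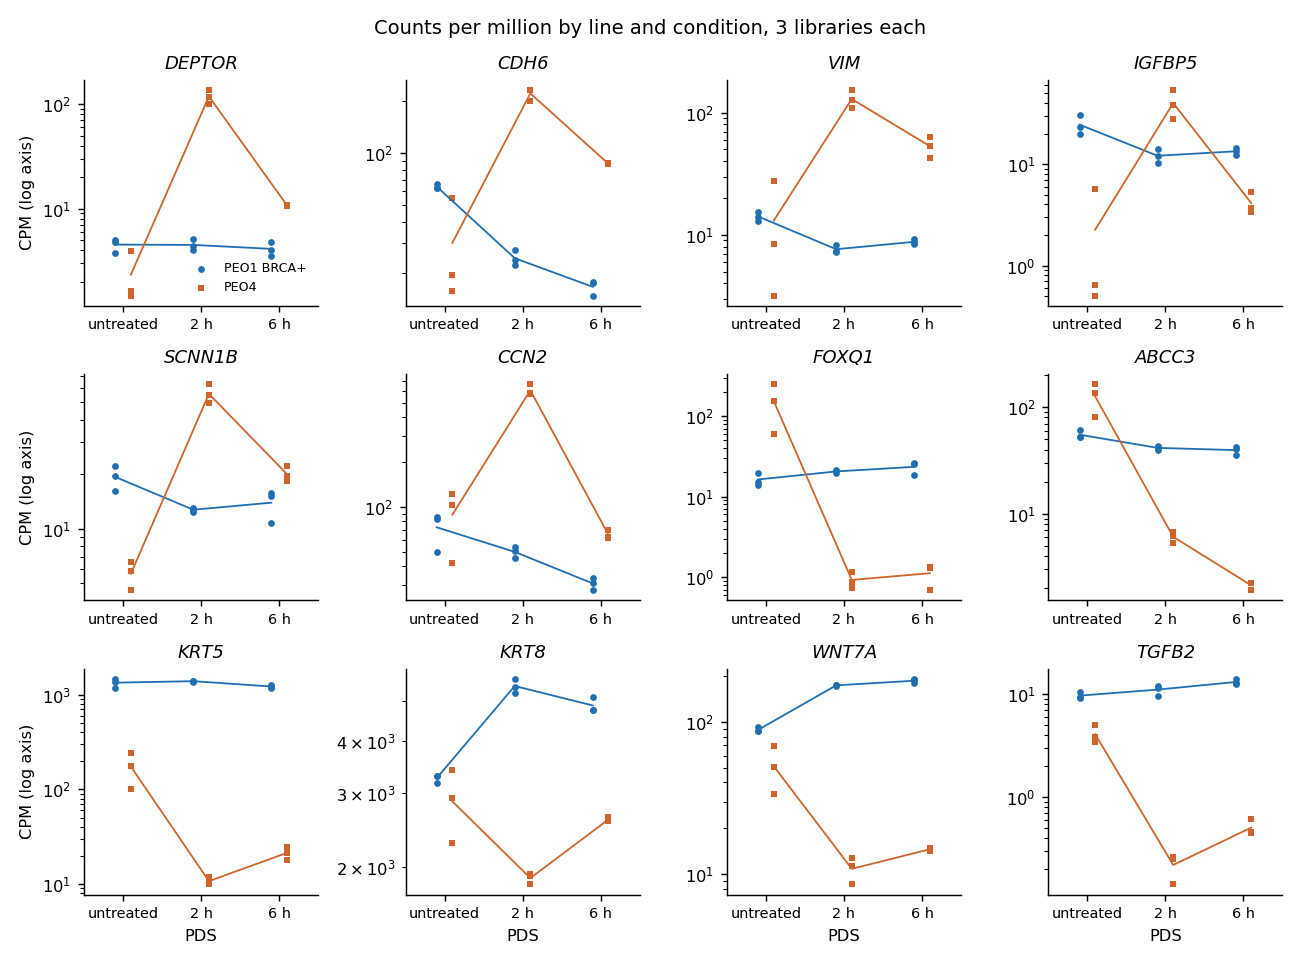
CPM on a log scale (vertical axis) of 12 genes in untreated cells and after 2 and 6 h of PDS (horizontal axis); points are libraries and lines join the means of PEO4 and of PEO1 BRCA+. DEPTOR, CDH6, VIM, IGFBP5, SCNN1B and CCN2 stand higher in PEO4 at 2 h than untreated, and FOXQ1, ABCC3, KRT5, KRT8, WNT7A and TGFB2 lower.

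Of the 85 genes called in opposite directions untreated and at 2 h, 4 of the 6 with the largest changes among those of at least moderate abundance turned in favour of PEO4. CDH6, a cadherin of kidney and ovarian tumours, was at 19.6, 54.7 and 15.8 CPM in untreated PEO4 and 62.8, 66.5 and 62.6 CPM in untreated PEO1 BRCA+ (Log2FC -1.102), and at 233, 233 and 202 against 22.2, 23.8 and 27.5 CPM at 2 h (3.18, change 4.29 ± 0.45, adjusted p = 9.15e-06). IGFBP5, which binds insulin-like growth factors, was at 0.649, 5.62 and 0.507 against 23.4, 19.8 and 30.2 CPM untreated (-3.501) and at 37.9, 53.7 and 28.03 against 10.3, 13.9 and 12.1 CPM at 2 h (1.72, change 5.22 ± 0.66, adjusted p = 4.33e-05). The peptidase TRHDE turned from -2.72 to 1.52 and the sodium channel subunit SCNN1B, a neighbour of SCNN1G on chromosome 16, from -1.78 to 2.13, with changes of 4.24 ± 0.32 and 3.91 ± 0.22. In the other untreated pair all 4 were lower in PEO4, as they were untreated here (Log2FC -3.09 for CDH6, -8.04 for IGFBP5, -8.32 for TRHDE and -6.69 for SCNN1B).

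FOXQ1, a forkhead factor linked to epithelial plasticity, and ABCC3 turned the other way. FOXQ1 was at 154, 59.05 and 247 CPM in untreated PEO4 and 15.3, 14.04 and 19.6 CPM in untreated PEO1 BRCA+ (Log2FC 3.24), and at 1.17, 0.736 and 0.864 against 20.7, 21.2 and 19.6 CPM at 2 h (-4.47). The change of -7.71 ± 0.70 (adjusted p = 2.32e-06) was the largest in that direction among genes of at least moderate abundance, and at 6 h the difference was -4.42. ABCC3 averaged 126 CPM in untreated PEO4 and 55.1 CPM in untreated PEO1 BRCA+ (1.195), so its change was -3.97 ± 0.29 (adjusted p = 1.86e-07).

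Other genes had a line difference in untreated cells that was smaller at 2 h. LRRTM1, a synaptic adhesion protein, averaged 245 CPM in untreated PEO4 and 0.0573 CPM in untreated PEO1 BRCA+, and was at 2.06, 2.01 and 1.61 against 0.0315, 0.103 and 0.149 CPM at 2 h (change -7.69 ± 1.35, adjusted p = 0.00027), a size that rests on 4 counts in untreated PEO1 BRCA+. The collagen chain COL5A2 averaged 41.6 CPM in untreated PEO4, with 1.305, 1.19 and 1.01 CPM at 2 h (change -5.49 ± 0.95), the protease inhibitor SERPINB2 120.1 CPM, with 2.25, 1.56 and 2.74 CPM at 2 h (-5.39 ± 0.80), and the semaphorin co-receptor PLXNA4 113 CPM, with 5.28, 5.92 and 5.38 CPM at 2 h (-4.98 ± 0.24). At 2 h none of these 3 was called between the lines (Log2FC 0.76, 0.78 and 0.35). The forkhead gene FOXF2 also passed the test of change, but it was at or near 0 in PEO4 in both conditions (0 CPM at 2 h and a mean of 0.0977 CPM untreated, against 15.8, 16.8 and 14.7 CPM in PEO1 BRCA+ at 2 h), so the size of the fitted change depends on how 0 counts are treated. CDH11 was likewise near 0 in PEO4 in both conditions.

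A larger share of long non-coding RNA genes than of protein-coding genes was called higher in PEO4, a difference in shares that was not tested. Of 1367 tested, 337 (24.7%) were higher and 181 (13.2%) lower, against 12.6% and 12.9% of 14005 protein-coding genes. The genes named here were chosen after their values were seen. UCA1, a lncRNA first described in bladder carcinoma, was at 1091, 1098 and 999 CPM in PEO4 and at 76.7, 90.9 and 90.1 CPM in PEO1 BRCA+ (Log2FC 3.63 ± 0.12, adjusted p = 1.77e-14). MALAT1, a nuclear RNA of speckles, was at 714, 1534 and 755 against 374, 332 and 326 CPM (1.54 ± 0.24, adjusted p = 6.1e-05), with replicate 2 of PEO4 far above the other 2; without that library the Log2FC was 1.09. The snoRNA host genes SNHG16 (1.25) and SNHG6 (1.42) were higher, 2 of the 4 higher among 27 such genes tested. That share of 14.8% was near the 13.9% of all genes tested.

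Replication-dependent histone genes, whose messages end in a stem-loop in place of a poly(A) tail, were also examined after the values were seen. Of 37 tested, 15 (40.5%) were lower in PEO4 and 1 higher at 2 h (median Log2FC -0.97), whereas untreated 2 were lower and 3 higher (median 0.06). Together they made up 0.00218 to 0.00268% of the counts in the 3 PEO4 libraries and 0.00493 to 0.00537% in those of PEO1 BRCA+, and the line difference was more negative than untreated in 13. In untreated cells the order was the reverse, with 0.00462 to 0.00644% in PEO4 and 0.00389 to 0.00419% in PEO1 BRCA+. The study's methods give poly(A) enrichment for its RNA libraries, which recovers few such messages. Among 80 ribosomal protein genes 5 (6.25%) were higher and 0 lower (median 0.22). Among 452 ZNF genes 63 (13.9%) were higher and 24 (5.31%) lower (median 0.35). Over all genes tested 13.9% were higher and 12.6% lower, so the share of ZNF genes that was higher was that of all genes.

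The direction of the difference varied by chromosome. On chromosome 6 the median Log2FC over 739 genes was 0.52 and 24.4% were higher in PEO4, and on chromosome 8, with a median of 0.26 over 551 genes, 26.1% were higher, against 13.9% of all genes. On chromosome 22 the median was -0.35 over 413 genes with 24.5% lower, and on chromosome 13, which carries BRCA2, COL4A1 and COL4A2, -0.37 over 295 genes with 23.7% lower, against 12.6%. The untreated and 6 h medians of these 4 chromosomes lay on the same side of 0. Chromosome 21 had a median of -0.17 at 2 h and of 0.87 in the other untreated pair.

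**Figure D5:**
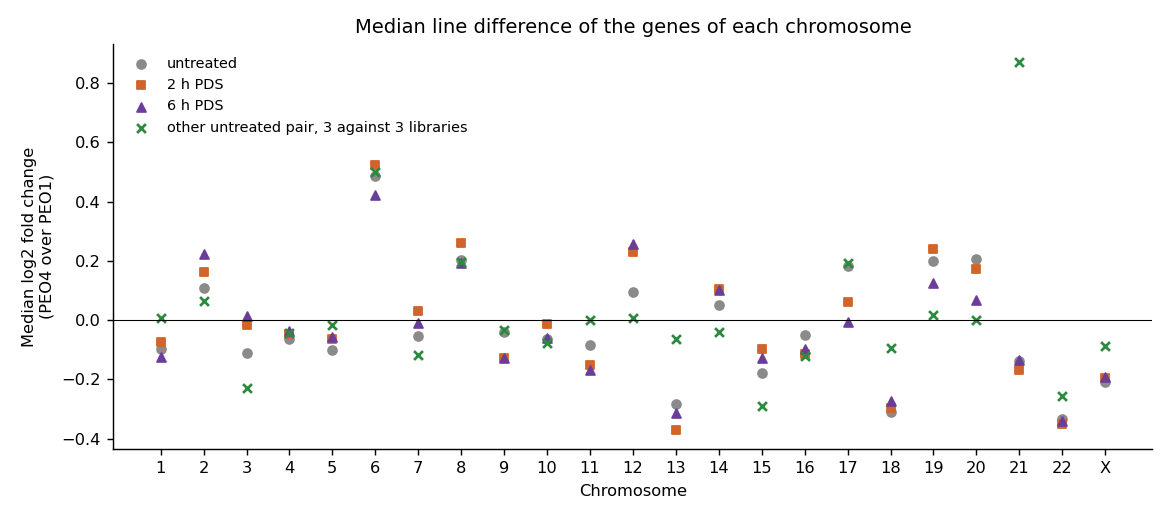
Median Log2FC of PEO4 against PEO1 BRCA+ over the tested genes of each chromosome, untreated, after 2 h and after 6 h of PDS, with the other untreated pair beside them. Chromosome 6 stands highest and chromosomes 13, 22 and 18 lowest in the 3 conditions that share these lines, and chromosome 21 differs in the other pair.

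Since PDS binds G-quadruplexes, the promoters of called genes were searched for the sequence that can form them, 4 runs of at least 3 G separated by loops of 1 to 7 bases on either strand, in the 250 bases before the start. The pattern was in 34.6% of 1544 promoters of genes higher in PEO4 and in 37.0% of 1505 promoters of genes lower, against 31.9% of the 12445 promoters of tested genes and 22.7% of all 27195. For genes with a line difference more positive at 2 h than untreated, it was in 38.3% of 713. For those with a more negative one, it was in 35.1% of 599. The promoters of MMP14 (chr14:22836335-22836584, plus strand) and EIF4G1 (chr3:184314356-184314605, plus strand) show the pattern in a gene higher and a gene lower in PEO4, with the match in capitals; in MMP14 it is on the opposite strand and reads as runs of C.
MMP14: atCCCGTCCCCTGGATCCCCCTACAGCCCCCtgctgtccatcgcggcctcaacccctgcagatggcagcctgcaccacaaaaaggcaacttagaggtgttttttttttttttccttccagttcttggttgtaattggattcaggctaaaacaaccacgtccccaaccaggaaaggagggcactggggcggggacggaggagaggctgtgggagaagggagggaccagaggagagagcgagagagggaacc
EIF4G1: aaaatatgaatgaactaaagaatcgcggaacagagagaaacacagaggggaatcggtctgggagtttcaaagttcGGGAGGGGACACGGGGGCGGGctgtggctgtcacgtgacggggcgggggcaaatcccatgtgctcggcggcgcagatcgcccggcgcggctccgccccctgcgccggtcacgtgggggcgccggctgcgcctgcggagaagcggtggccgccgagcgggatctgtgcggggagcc
The match began 248 bases before the start in MMP14 and 175 bases before it in EIF4G1. It shows letters that can fold and not a folded structure.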

How the data were processed

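RNA of the ovarian adenocarcinoma lines PEO4 and PEO1 BRCA+ was sequenced untreated and after 2 and 6 h of 5 µM pyridostatin, with 3 libraries per group, by poly(A) enrichment per the study's methods. The deposited values were raw counts per gene symbol, which the authors had made from reads with tools that the submitters' processing notes list as FastQC, fastp, STAR and featureCounts, with the build hg38. The annotation and strand setting of the counting are not given in the sources used here, so overlapping, antisense and near-identical genes may share reads.

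The counts were scaled by TMM and fitted with edgeR 4.0.16 (R 4.3.3, robust quasi-likelihood, 1 mean per line and condition, 18 libraries, 12 residual degrees of freedom) after edgeR's filter by expression. This filter asked for 15 counts in total and, in at least 3 libraries, for the CPM that equals 10 counts at the median library size. Smaller libraries could therefore pass with fewer than 10 counts. Calls needed an absolute Log2FC over 1 and a p under 0.05 after Benjamini-Hochberg adjustment over all 17020 tested genes. All Log2FC values, their standard errors (after ±) and adjusted p are from this fit, and the other untreated pair was fitted apart. CPM values are TMM-scaled. Where every library of one line was at 0, a fold was computed against 3 counts per library; at 1 to 3 counts, a ratio of summed counts was given with an exact 95% interval, which covers counting error only. The fit was tested on simulated counts, in which 200 of 200 genes changed by a log2 of 2 were recovered among 16832, with 3 unchanged genes called. Every gene was drawn with the common dispersion (0.005018), and the changed genes were picked among those with higher counts. The simulation thus does not cover genes near the floor, or the unequal spread of real genes and libraries. DESeq2 1.42.0 was used as an alternative.

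The members and the 41 gene lists were chosen with earlier results of these data known, so no list is independent evidence. Genes were named by rule: the 10 largest Log2FC values in each direction with a mean log2 CPM of at least 3 ("moderate abundance") and no overlap, the 6 with the most counts in each direction, up to 2 per list and direction, the 6 largest changes in each direction and 6 called in opposite directions. Some genes that these rules name are not reported here. Further list members were named for their abundance or role after their values were seen. Promoters were 250 bases before RefSeq starts (GRCh38.p14), matched by symbol.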

Additional observations from a re-analysis of the deposited data

Results flagged for a closer look

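The difference between the lines was itself different at 2 h of PDS and untreated, by the interaction contrast of the edgeR fit, in 1039 genes that became more positive and in 837 that became more negative, and 85 genes were called in opposite directions. The untreated libraries were of lower depth and higher ribosomal share than the 2 h libraries, and the 3 untreated PEO4 libraries were spread widely for several of the genes (DEPTOR, CDH6, VIM and IGFBP5); the part of either in these changes was not tested. The values below are changes of the Log2FC, 2 h against untreated.

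Among signalling ligands, receptors and other members, regulators or targets of signalling pathways, the line difference became more positive in DEPTOR (5.72), IGFBP5 (5.22), CCN2 (3.32), ANKRD1 (3.21), NR4A3 (2.64), GDF15 (2.17), DUSP4 (1.75), JAG1 (1.66), DUSP2 (1.64), EREG (1.57) and SESN3 (1.23). Of the same kind, it became more negative in PLXNA4 (-4.98), TGFB2 (-4.38), APCDD1 (-3.88), AXIN2 (-3.24), WNT7A (-3.197), INHBB (-3.17), GABBR2 (-2.97), VGLL1 (-2.89), NRARP (-2.76), ROR1 (-2.45), ID4 (-1.37) and NTN1 (-1.003). Among keratins, cornified envelope, adhesion and matrix genes, the line difference became more positive in CDH6 (4.29), VIM (4.22), KRT81 (2.39), ITGA4 (2.21), LAMA4 (2.15), ITGA9 (1.93), COL6A2 (1.15) and CLDN3 (1.08). Of the same kind, it became more negative in LRRTM1 (-7.69), COL5A2 (-5.49), SPRR1B (-5.33), KRT5 (-4.08), CEACAM6 (-3.37), CDH11 (-3.29), IVL (-2.48), LAMA1 (-1.43), KRT8 (-1.35) and KRT18 (-1.33). Among transporters and channels, the line difference became more positive in SCNN1G (4.89), AQP5 (4.27), SCNN1B (3.91), SLC22A2 (3.59), ABCA3 (2.43) and SLC39A4 (2.03). Of the same kind, it became more negative in ABCC3 (-3.97) and ABCC4 (-1.78). Among the remaining genes, the line difference became more positive in CXCL5 (11.12), TRHDE (4.24), CA12 (3.92), CXCL8 (3.57), CALB2 (3.33), GREB1 (3.29), CXCL1 (2.96), WFDC2 (1.796), MALAT1 (1.46), KIF6 (1.36), TRIB3 (1.33), HSPB1 (1.22) and NCCRP1 (1.07). It became more negative in FOXQ1 (-7.71), SERPINB2 (-5.39), FOXF2 (-4.52), MX1 (-2.55), MT1G (-2.48), CRYAB (-1.87), NR3C2 (-1.78), IL32 (-1.25), SNAI2 (-1.12) and HSPB8 (-1.05). For AQP5, CDH11, CXCL5, FOXF2 and LRRTM1 no library of at least 1 of the 4 groups held more than 3 counts, so the size of the fitted change depends on how 0 counts are treated. Each of the 12 untreated and 2 h libraries was also left out in turn. The change stayed called in 5 of these fits for COL6A2, 6 for FOXF2 and SNAI2 and 7 for CDH11. It stayed so in 8 for HSPB8, 9 for NTN1, 10 for NCCRP1 and 11 for CLDN3. The other genes listed here kept it in all 12.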

How the results depend on the processing

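Scaling by library totals, DESeq2 size factors or upper quartiles, DESeq2's Wald test, no filter on low counts and a fit of the 6 libraries alone kept each count of line differences within 1.5 times its value, as library totals, DESeq2 size factors and the Wald test did for the 2 counts of changes (upper quartiles, the filters and the 6 libraries alone were not run for these), and no result changed direction where run; the median Log2FC of all genes ran from 4e-04 to 0.0465 over the scalings. The thresholds mattered most. When only the adjusted p was asked for, PEO4 was higher in 6306 genes and lower in 6096, 3285 changes were more positive and 3066 more negative, and 557 lncRNA genes were higher and 326 lower. With an absolute Log2FC over 2, the counts were 824 and 857, with 4 WNT ligands lower and 130 and 85 lncRNA genes. Testing against a Log2FC of 1 (glmTreat) left 1533 genes higher, and 184 and 117 lncRNA genes, and a filter of 1 CPM in 3 libraries left 210 lncRNA genes higher. These counts moved because fewer or more genes could pass by construction.

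Leaving out each library in turn gave 2234 to 2483 genes higher, 2145 to 2194 lower, 945 to 1130 changes more positive and 776 to 933 more negative, 27 interferon-stimulated genes in every such fit, 21 to 22 HOX genes, 7 to 8 WNT ligands lower, and 311 to 340 and 176 to 188 lncRNA genes. The HOX range lies above the 20 of the main fit. With a smaller group the filter asks for fewer libraries, so the set of genes tested is not the same. Of 162 genes named by rule, 154 kept their result at 2 h, called or not called between the lines, in each of the 6 fits without a 2 h library. AHNAK, FLNA, GATA3, HSPA1A, IL11, MKI67, CACNA1E and LORICRIN did not. This count does not cover the changes against untreated cells. Replicate numbers did not pair the samples (correlations of deviations -0.01, 0.03 and 0.03), and a fit with the replicate block gave 2373 genes higher and 2148 lower.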
